A study of Mus musculus with 9 samples.

Results

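Metallothioneins and zinc transporters are described here through 8 genes chosen by symbol, out of 24541 gene symbols in the expression table. They are the metallothioneins Mt1 and Mt2, the metal-sensing transcription factor Mtf1, the exporters Slc30a1 and Slc30a10, and the importers Slc39a4, Slc39a14 and Slc39a10. All 8 were found, and all 8 averaged 0.5 FPKM or more, the level set for testing.

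Messenger RNA was sequenced from livers of Balb/c mice aged 9 weeks. The LRH1+APAP group (3 livers) received acetaminophen (APAP) and LRH1, the orphan nuclear receptor whose gene is Nr5a2. The APAP group (3 livers) received acetaminophen, which hepatocytes convert into a reactive metabolite that binds thiols, and the vehicle group (3 livers) received vehicle. The design addresses how liver RNA under acetaminophen differs from vehicle, with and without LRH1, and no group received LRH1 without acetaminophen. The labels used here leave out sex, dose, route, time to collection and the form in which LRH1 was administered. Livers were kept in RNAlater, RNA was extracted with Trizol, and 1 µg per liver went into Illumina TruSeq mRNA libraries. Values are the authors' deposited FPKM, a fragment count scaled by transcript length and library size, summed here over the transcript models of a symbol.

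Metallothioneins are small cysteine-rich proteins that bind zinc, copper and cadmium and react with oxidants, and the hepatocyte is one of their main sites of synthesis. MTF1 senses free zinc, enters the nucleus and binds metal response elements, short DNA motifs in front of the metallothionein genes and of Slc30a1. SLC30 proteins move zinc out of the cytosol into vesicles or out of the cell, and SLC39 proteins move it into the cytosol.

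The promoters of Mt1, Mt2 and Slc30a1 are shown because metal response elements are the shared regulatory feature of the group. Each window runs from 250 bases before to 50 bases after the RefSeq start, on build GRCm38.p6, on the plus strand for all 3 genes. Capitals mark the metal response element core, TGCACNC or TGCGCNC read on either strand, where N is any base. The windows are chr8:94178839-94179138 for Mt1, chr8:94172368-94172667 for Mt2 and chr1:191906531-191906830 for Slc30a1.
Mt1: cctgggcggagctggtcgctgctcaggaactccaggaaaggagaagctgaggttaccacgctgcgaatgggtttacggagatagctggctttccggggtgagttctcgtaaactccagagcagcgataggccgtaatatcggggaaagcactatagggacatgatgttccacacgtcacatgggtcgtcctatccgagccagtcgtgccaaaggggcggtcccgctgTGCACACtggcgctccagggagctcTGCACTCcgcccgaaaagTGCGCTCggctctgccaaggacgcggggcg
Mt2: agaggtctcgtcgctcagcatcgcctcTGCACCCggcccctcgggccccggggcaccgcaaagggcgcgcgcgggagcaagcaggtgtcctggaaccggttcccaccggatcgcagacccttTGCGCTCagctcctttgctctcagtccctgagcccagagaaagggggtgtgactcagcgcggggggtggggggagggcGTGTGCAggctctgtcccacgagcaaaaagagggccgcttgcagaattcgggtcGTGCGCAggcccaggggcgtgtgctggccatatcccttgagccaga
Slc30a1: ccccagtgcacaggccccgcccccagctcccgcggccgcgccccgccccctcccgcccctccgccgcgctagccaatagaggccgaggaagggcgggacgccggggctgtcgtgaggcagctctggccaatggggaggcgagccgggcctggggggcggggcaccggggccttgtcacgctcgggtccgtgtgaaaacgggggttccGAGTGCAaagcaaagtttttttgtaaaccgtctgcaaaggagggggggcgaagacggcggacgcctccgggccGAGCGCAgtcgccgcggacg

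The core occurred 3 times in the Mt1 window, 4 times in the Mt2 window and 2 times in the Slc30a1 window. Counted from the RefSeq start, the Mt1 cores began at -23, 3 and 21 and the Mt2 cores at -223, -128, -50 and 5. The Slc30a1 cores began at -43 and 31, so each window held cores on both sides of the start. Of all 32851 RefSeq windows of that length, 25.7 percent held at least 1 core, 7.11 percent at least 2, 1.97 percent at least 3 and 0.517 percent at least 4. Slc30a10 held 3 cores, of which 1 pair overlapped on opposite strands, while the windows of Mtf1 and both windows of Slc39a10 held 0. The antioxidant response element core TGACNNNGC, a motif of NRF2, occurred once in the Mt2 and once in the Slc30a1 window, and in 12.4 percent of all windows. The STAT motif TTCNNNGAA occurred in 1 of the 2 Slc39a10 windows and in 8.3 percent of all windows. The Slc39a10 window nearer to the deposited transcript model, chr1:46853569-46853868, held 0 STAT motifs. In all, 6 of the 8 genes matched the RefSeq promoter entries, and a match describes letters in the window only.

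The livers differed most among themselves in the APAP group. The root mean square SD of log2(FPKM + 1) over all tested genes was 0.177 in LRH1+APAP, 0.312 in APAP and 0.178 in vehicle livers. The 3 APAP livers lay apart from each other, livers 1 and 2 the farthest, with a Spearman correlation across genes of 0.9491, against 0.9755 for livers 1 and 3 and 0.9768 for livers 2 and 3. With the LRH1+APAP livers the correlation ran from 0.9741 to 0.98 for APAP liver 1, from 0.9314 to 0.9377 for liver 2 and from 0.9622 to 0.9667 for liver 3, and with the vehicle livers it was lowest for liver 2, at 0.8641 to 0.8701. Nothing in the labels gives a reason to leave any of them out. Hepatocyte markers were abundant, with the summed FPKM of Alb, Ttr, Apoa1, Serpina1c and Fgb between 45640.5 and 53205 in all 9 livers. Of 5 pancreatic acinar markers, 4 were listed at 0 in all 9 livers. Of 5 enterocyte markers, Cdx1 and Cdx2 were listed at 0 in all 9, while Fabp2 and Lgals4 were not low, and the 5 summed to between 86.8 and 101 FPKM in LRH1+APAP livers, 117 and 152 FPKM in APAP livers and 195 and 238 FPKM in vehicle livers. Summed FPKM of 8 monocyte and neutrophil markers was 146.9, 159 and 131 in LRH1+APAP livers 1 to 3, 84.2, 515 and 187 in APAP livers and 30.7, 28.4 and 31.1 in vehicle livers. Summed erythroid markers lay between 337 and 844 FPKM in LRH1+APAP livers, between 804 and 2546 FPKM in APAP livers, with liver 2 highest, and between 243 and 358 FPKM in vehicle livers. Summed Kupffer cell, endothelial, stellate, cholangiocyte and lymphocyte markers were higher in every APAP and every LRH1+APAP liver than in every vehicle liver. Of the tested markers in these lists, Timd4, Kdr, Lrat, Col1a1 and Krt19 were not called for APAP against vehicle. The part of any of these cell types in the results was not tested. In bulk liver, fewer cells of a type and less RNA per cell cannot be told apart.

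Under acetaminophen, 6 of the 8 genes rose and 0 fell relative to vehicle (limma, Benjamini-Hochberg adjusted p under 0.05 over the 12202 genes tested). The 6 were Mt1, Mt2, Slc30a1, Slc30a10, Slc39a4 and Slc39a10, and at an unadjusted p under 0.05 the counts were also 6 and 0. Across all genes tested, 62.9 percent passed in this comparison, of which those that rose were 47.8 percent of all and those that fell 15.1 percent, and 66.8 percent had an unadjusted p under 0.05. The livers of the APAP and vehicle groups did not overlap for the same 6 genes, as for 50.5 percent of all genes in the upward direction. The median log2 difference was 0.74 over the 8 genes and 0.25 over all genes.

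That upward shift of the whole table depends on the scaling. With FPKM as deposited, 5835 genes were called higher and 1845 lower, with upper-quartile scaling 3810 and 3227, and after quantile normalization 3126 and 3699. The median over all genes was then 0.04 and -0.04. Relative to the median of all genes as deposited, Mt1 stood at 2.26, Mt2 at 2.39, Slc39a10 at 1.19, Slc30a10 at 0.78 and Slc39a4 at 0.20, whereas Slc30a1 stood at -0.02.

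With LRH1 added to acetaminophen, 1 of the 8 genes, Slc30a1, rose relative to acetaminophen alone and 0 fell (limma, adjusted p under 0.05). At an unadjusted p under 0.05, 1 was higher and 2, Slc30a10 and Slc39a10, were lower. Across all genes, 7.13 percent rose and 5.17 percent fell, 12.3 percent in all, and 32.7 percent had an unadjusted p under 0.05. Slc30a1 was higher in every LRH1+APAP liver than in every APAP liver, a pattern found in 17.9 percent of all genes, and Slc30a10 was lower in every one, as were 15.7 percent. The median log2 difference was -0.34 over the 8 genes and -0.01 over all genes. Without APAP liver 1 the count was 1 higher and 3 lower, where 38.1 percent of all genes passed. Without any other single liver it was 0 and 0, where 1.73 to 7.97 percent of all genes passed.

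Relative to vehicle, 5 of the 8 genes rose with LRH1+APAP and 0 fell, namely Mt1, Mt2, Slc30a1, Slc30a10 and Slc39a4 (limma, 6 and 0 at an unadjusted p under 0.05). Across all genes, 39.2 percent rose and 8.02 percent fell, 47.2 percent in all, and 55.3 percent had an unadjusted p under 0.05. For 7 of the 8 genes, all but Slc39a14, the lowest LRH1+APAP liver lay above the highest vehicle liver, as for 54.6 percent of all genes. The median was 0.52 over the 8 genes and 0.22 over all genes. The calls were 4780 higher and 979 lower as deposited, 2358 and 2396 with upper-quartile scaling (median of all genes 0.02) and 1899 and 2624 after quantile normalization (-0.06). Of the 8 genes, 3 rose under upper-quartile scaling and 2, Mt1 and Mt2, after quantile normalization. The count was 3 without LRH1+APAP liver 1 or 3 or vehicle liver 2, where 36.6, 31.4 and 35.6 percent of all genes passed. These 3 comparisons share livers, so their counts are not independent of each other.

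**Figure D1:**
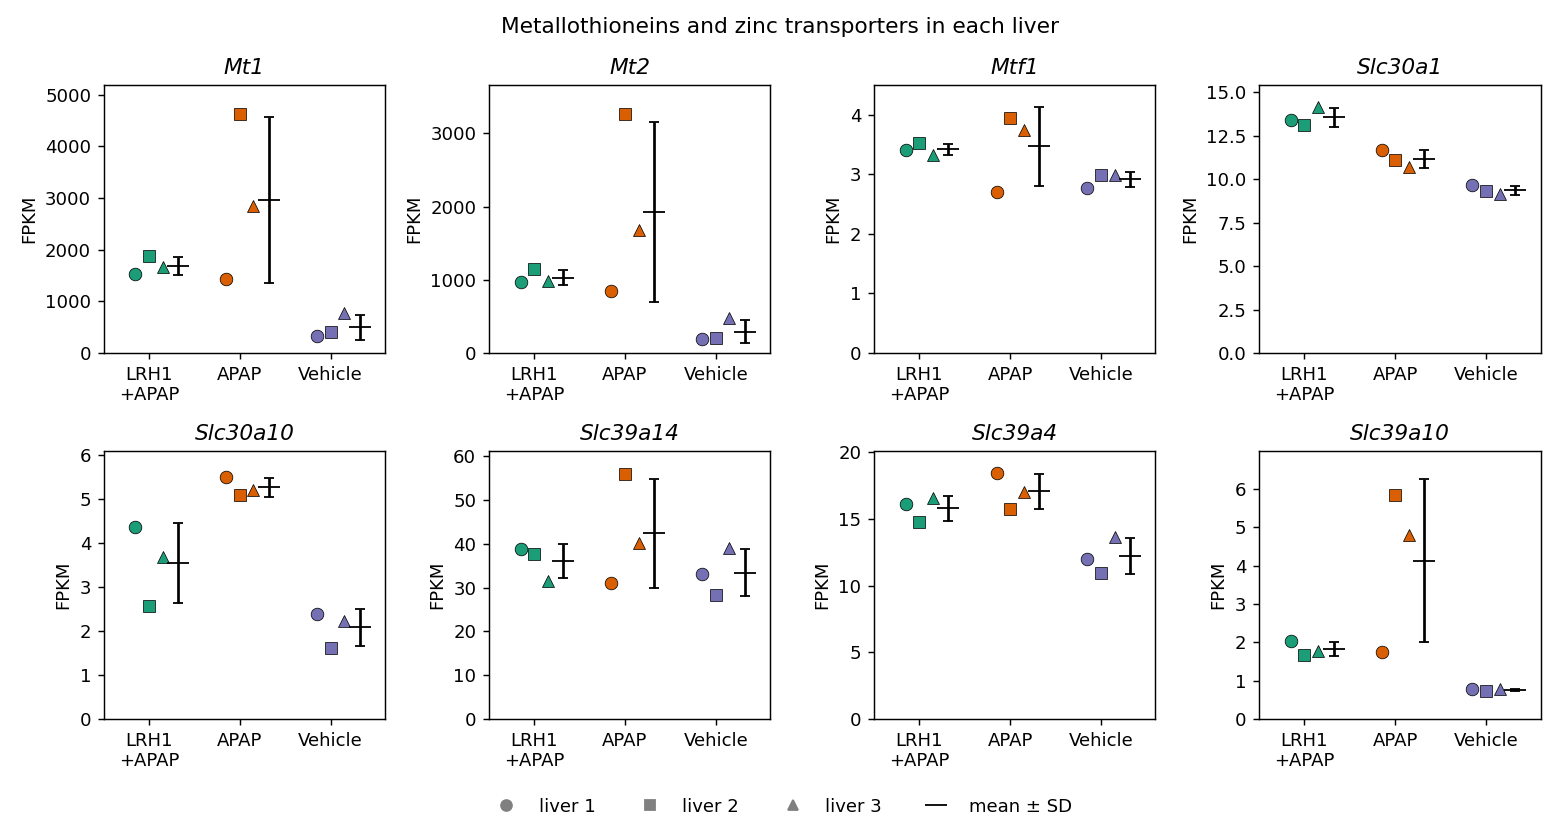
FPKM of each of the 8 genes in each liver, 1 panel per gene with its own linear axis from 0, with a symbol for each liver, bars for mean ± SD and the groups in the order LRH1+APAP, APAP and vehicle. Mt1 and Mt2 were lowest in the vehicle livers and spread most in the APAP livers, where Mt1 lay between 1430.1 and 4633 FPKM.

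Mt1, which encodes metallothionein 1 (chromosome 8, 94179090 to 94180327 in mm10), had 1539.9, 1876 and 1658 FPKM in LRH1+APAP livers 1 to 3, 1430.1, 4633 and 2839 FPKM in APAP livers, and 323, 404 and 775 FPKM in vehicle livers. Every treated liver exceeded every vehicle liver, while the LRH1+APAP livers all lay within the range of the APAP livers. Mean levels were 1691 ± 170.4 FPKM with LRH1+APAP, 2967 ± 1606 FPKM with APAP and 501 ± 241 FPKM with vehicle (SD, n = 3 each). APAP livers held 5.92 times the mean FPKM of vehicle livers (log2 difference 2.51, SE 0.43, limma adjusted p = 0.00129), and LRH1+APAP livers 3.38 times (1.85, SE 0.43, limma adjusted p = 0.00845). Both calls held under all 19 alternatives, with adjusted p between 0.000157 and 0.00676 for APAP and between 0.00146 and 0.0339 for LRH1+APAP.

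Mt2, which encodes the other liver metallothionein and lies next to Mt1 (94172619 to 94173567), had 966, 1144 and 978 FPKM in LRH1+APAP livers, 846, 3265 and 1683 FPKM in APAP livers, and 197, 204 and 477 FPKM in vehicle livers. As with Mt1, the treated livers did not overlap the vehicle livers, and the LRH1+APAP livers lay within the APAP range. The mean of APAP livers was 6.60 times that of vehicle livers (log2 difference 2.64, SE 0.48, limma adjusted p = 0.00174). The mean of LRH1+APAP livers was 3.52 times that of vehicle livers (1.94, SE 0.48, limma adjusted p = 0.0113). Both calls held under all 19 alternatives, at adjusted p of at most 0.0438.

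The difference between LRH1+APAP and APAP livers was -0.66 for Mt1 (95% interval -1.63 to 0.31, limma adjusted p = 0.312) and -0.70 for Mt2 (-1.79 to 0.39, limma adjusted p = 0.336). Both intervals hold 0, and both also hold differences below -1. Without APAP liver 1, the lowest of its group for both genes, Mt1 fell by 1.10 (limma adjusted p = 0.0398) and Mt2 by 1.19 (limma adjusted p = 0.0497). Over the alternatives the adjusted p ranged from 0.0398 to 0.701 for Mt1 and from 0.0497 to 0.763 for Mt2. Summed monocyte and neutrophil markers had the same order in the APAP livers, lowest in liver 1 and highest in liver 2, and in that list 0 of 7 tested markers rose and 2 fell with LRH1+APAP relative to APAP (limma, 1 and 5 at an unadjusted p under 0.05), with a median of -1.47. The 2 were S100a8 (-3.85, limma adjusted p = 0.0236) and S100a9 (-3.71, limma adjusted p = 0.0268), neutrophil calcium-binding proteins. Of all genes, 7.13 percent rose and 5.17 percent fell in that comparison. The marker list did not move as one. Lyz2, the 1 marker higher at an unadjusted p under 0.05, averaged 138 FPKM in LRH1+APAP and 82.4 FPKM in APAP livers (0.89, limma adjusted p = 0.0945). Ccr2 stood at -0.12 (limma adjusted p = 0.403). The count of the list that fell was 0 without any 1 LRH1+APAP liver, 3 without APAP liver 2 and 4 without APAP liver 1. Across all genes, 1.73 to 4.34, 7.94 and 38.1 percent passed in these fits. Relative to vehicle, 7 of 7 rose with APAP, the median being 1.95, where 47.8 percent of all genes rose. Ly6c2, 1 of the 7, averaged 0.438 FPKM in LRH1+APAP, 0.876 FPKM in APAP and 0.217 FPKM in vehicle livers. It reached the level for testing through its APAP livers, so its call is no support for a rise. Ly6g, a defining neutrophil marker, was listed at 0 in all 3 vehicle livers and reached 0.368 FPKM in an APAP liver. The part of these cells in the metallothionein values was not tested.

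Together the pair made up 0.481, 0.570 and 0.507 percent of all FPKM in LRH1+APAP livers, 0.409, 1.43 and 0.828 percent in APAP livers, and 0.0937, 0.106 and 0.222 percent in vehicle livers. By FPKM, the rank of Mt1 among all genes lay between 38 and 49 in LRH1+APAP livers, between 16 and 54 in APAP livers, and between 89 and 199 in vehicle livers. The ratio of Mt1 to Mt2 varied far less than the level of either gene. It was 1.59, 1.64 and 1.70 in LRH1+APAP livers, 1.69, 1.42 and 1.69 in APAP livers and 1.64, 1.98 and 1.63 in vehicle livers, so that Mt1 was the higher gene in all 9. The transcripts of the pair are related but not near-identical. In GENCODE M21 the Mt1 and Mt2 transcripts, 549 and 511 bases long, were 60.7 percent identical over 568 aligned positions, and their longest common stretch was 20 bases.

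The genes whose pattern over the 9 livers was most like the metallothioneins were ranked by the root mean square difference of log2(FPKM + 1), each gene centred on its own mean. Mt2 and Mt1 were each other's closest gene, at 0.117 (Pearson r = 0.997 over 9 livers). After Mt2, the closest to Mt1 were Rassf1, a RAS-association tumour suppressor (0.285), the tetraspanin gene Cd9 (0.317), the septin gene Sept11 (0.319) and Procr, the protein C receptor (0.324). After Mt1, the closest to Mt2 were Junb, an AP-1 subunit (0.319), Procr (0.338), Rassf1 (0.359) and Tgif1, a homeobox corepressor (0.386). All points share the same 9 libraries and the difference between vehicle and treated livers, so these are descriptions without a test.

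**Figure D2:**
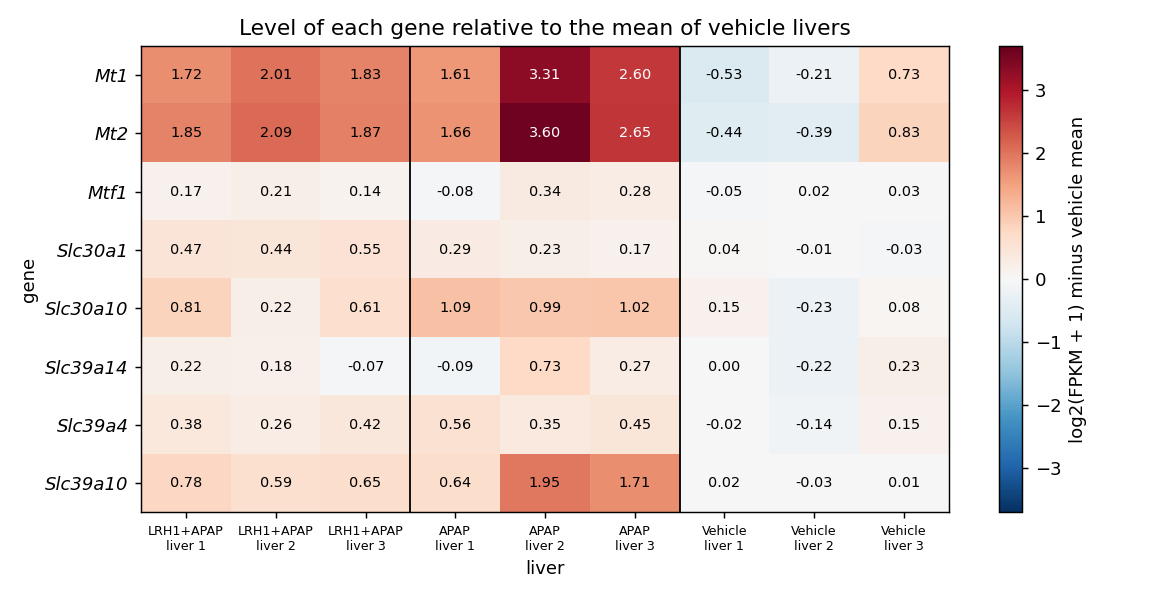
Log2(FPKM + 1) of each of the 8 genes in each liver minus the mean of the vehicle livers, as colours and printed values, with groups ordered LRH1+APAP, APAP and vehicle. The rows of Mt1 and Mt2 match closely, with APAP liver 2 highest at 3.31 for Mt1 and 3.60 for Mt2, and Slc39a10 is likewise highest there at 1.95.

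Mt1 and Mt2 lie 5523 bases apart in a cluster with Mt3 and Mt4, metallothioneins known from brain and from stratified epithelia. Mt3 had 0.298, 0.228 and 0.325 FPKM in LRH1+APAP livers, 0.241, 2.24 and 0.976 FPKM in APAP livers, and 0 in each vehicle liver. Its mean lay under 0.5 FPKM over the 9 livers, so it was not tested there. The 7 alternatives that tested it used no filter or left out a low liver, so that Mt3 entered through its high APAP livers. Its pass as higher with APAP than with vehicle in all 7 (limma adjusted p 0.000307 to 0.0370) is therefore no support for a rise. The 7 also share livers. Mt3 passed as lower with LRH1+APAP than with APAP in 1 of them, without APAP liver 1 (limma adjusted p = 0.00524, range 0.00524 to 0.298). Mt4 was listed at 0 in the LRH1+APAP livers, at 0, 4.67 and 0.694 FPKM in APAP livers and at 0 in the vehicle livers, and was called in none of the 3 comparisons. Without APAP liver 1, Mt4 passed as higher with APAP than with vehicle (limma adjusted p = 0.00733, range over the alternatives 0.00733 to 0.173) and as lower with LRH1+APAP than with APAP (limma adjusted p = 0.0165). Mt4 reached the level for testing through APAP livers 2 and 3 alone, so these passes are no support for a difference either. APAP liver 2 was the highest liver for all 4 genes of the cluster.

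The interval of 100000 bases around Mt1 and Mt2, set after the values of the pair were known, also held Bbs2 and Nup93. Nup93, a nuclear pore subunit, had 3.998, 4.06 and 4.85 FPKM in LRH1+APAP livers, 3.74, 6.20 and 4.38 FPKM in APAP livers and 1.42, 1.25 and 0.837 FPKM in vehicle livers. It rose by 1.29 with LRH1+APAP (limma adjusted p = 0.000598) and by 1.40 with APAP (limma adjusted p = 0.000261), both relative to vehicle. Bbs2, a subunit of the complex that carries membrane proteins to cilia, stood between 1.08 and 1.52 FPKM in all 9 livers and passed in none of the 3 comparisons.

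Mtf1, the zinc sensor itself (chromosome 4, 124802550 to 124849800), stood at 3.41, 3.52 and 3.32 FPKM in LRH1+APAP livers, 2.71, 3.95 and 3.75 FPKM in APAP livers and 2.77, 2.98 and 2.99 FPKM in vehicle livers. The LRH1+APAP livers all lay above the vehicle livers, while APAP liver 1 lay below all of them. The log2 difference was 0.18 for APAP against vehicle (95% interval -0.07 to 0.43, limma adjusted p = 0.180) and 0.17 for LRH1+APAP against vehicle (-0.07 to 0.42, limma adjusted p = 0.216), and both turned negative under upper-quartile scaling and quantile normalization. Without APAP liver 1 the gene passed as higher in both (0.31, limma adjusted p = 0.00429, and 0.17, limma adjusted p = 0.0405). Over the alternatives the adjusted p ranged from 0.00429 to 0.826 and from 0.0396 to 0.820. LRH1+APAP differed from APAP by -0.01 (-0.25 to 0.24, limma adjusted p = 0.976).

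Slc30a1 encodes ZnT1, the zinc exporter of the plasma membrane and a classical MTF1 target (chromosome 1, 191906782 to 191913247). It had 13.4, 13.1 and 14.2 FPKM in LRH1+APAP livers, 11.7, 11.1 and 10.7 FPKM in APAP livers, and 9.65, 9.30 and 9.14 FPKM in vehicle livers. The 3 groups did not overlap at any point, with the LRH1+APAP livers highest and the vehicle livers lowest. Means were 13.5 ± 0.546 FPKM with LRH1+APAP, 11.2 ± 0.511 FPKM with APAP and 9.36 ± 0.260 FPKM with vehicle (SD, n = 3 each), steps that are small beside those of the metallothioneins.

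Relative to vehicle, Slc30a1 rose by 0.49 with LRH1+APAP (SE 0.07, limma adjusted p = 0.000766), and after quantile normalization by less, without passing (0.21, limma adjusted p = 0.0554, range over the alternatives 0.000278 to 0.0554). It rose by 0.23 with APAP (SE 0.07, limma adjusted p = 0.0144), a difference that became -0.02 with upper-quartile scaling and -0.07 after quantile normalization. That call was also lost without vehicle liver 3 (limma adjusted p = 0.0501, range over the alternatives 0.00957 to 0.847). Relative to APAP, it rose by 0.26 with LRH1+APAP (SE 0.07, 95% interval 0.11 to 0.41, limma adjusted p = 0.0381). The size ranged from 0.23 to 0.29 over 19 alternatives, but 11 of them lost the call, among them those without any single liver other than APAP liver 1, and the adjusted p ran from 0.00965 to 0.132.

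Slc30a10 encodes ZnT10, known mainly as a manganese exporter despite its family (chromosome 1, 185454849 to 185468761). It had 4.37, 2.57 and 3.68 FPKM in LRH1+APAP livers, 5.49, 5.07 and 5.20 FPKM in APAP livers and 2.39, 1.61 and 2.23 FPKM in vehicle livers. The groups did not overlap and the LRH1+APAP livers stood between the other groups, which is not the order of Slc30a1. It rose by 1.03 with APAP relative to vehicle (SE 0.16, limma adjusted p = 0.000732), under all 18 alternatives that could test it. With LRH1+APAP it rose by 0.55 relative to vehicle (SE 0.16, limma adjusted p = 0.0196). That call was lost with upper-quartile scaling, after quantile normalization and without LRH1+APAP liver 1 or 3 or vehicle liver 2, with adjusted p between 0.00681 and 0.318 over the alternatives. The difference of LRH1+APAP from APAP was -0.48 (95% interval -0.84 to -0.13, limma adjusted p = 0.0717), and no alternative of the 18 passed.

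**Figure D3:**
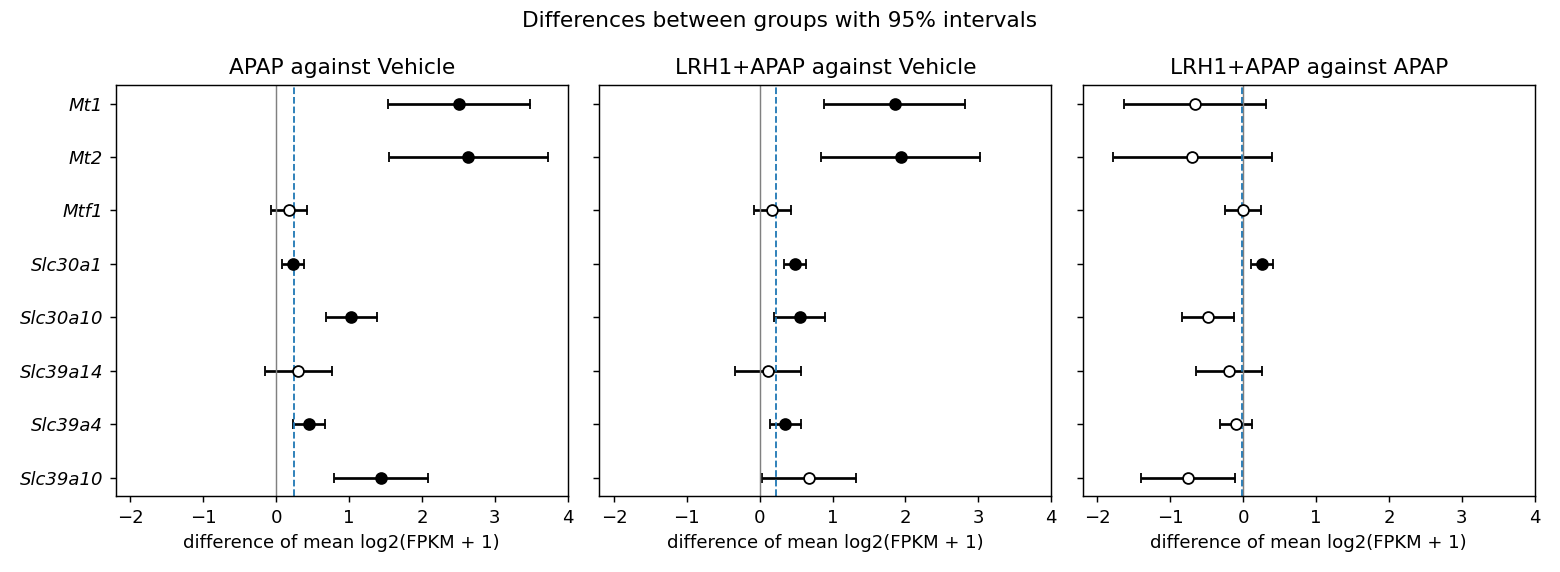
Difference of mean log2(FPKM + 1) for each of the 8 genes in the 3 comparisons, with bars for the 95% interval, filled points for an adjusted p under 0.05 and a dashed line at the median of all genes tested. Mt1 and Mt2 have the widest intervals, and Slc30a1 is the single filled point in LRH1+APAP against APAP, at 0.26.

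Slc39a10 encodes ZIP10, a plasma membrane zinc importer that MTF1 represses in zinc-loaded mouse liver cells (chromosome 1, 46807545 to 46853509). It had 2.03, 1.66 and 1.77 FPKM in LRH1+APAP livers, 1.75, 5.85 and 4.80 FPKM in APAP livers and 0.787, 0.737 and 0.781 FPKM in vehicle livers. APAP liver 1 lay among the LRH1+APAP livers, apart from APAP livers 2 and 3, and every treated liver lay above the vehicle livers. The gene rose by 1.43 with APAP relative to vehicle (SE 0.28, limma adjusted p = 0.00256), with a mean FPKM 5.38 times that of vehicle livers, under all 18 alternatives that could test it. With LRH1+APAP against vehicle the difference was 0.67 (95% interval 0.03 to 1.32, limma adjusted p = 0.0797). It passed with a pseudocount of 0.1, where the difference was 1.14 (limma adjusted p = 0.0310), with 6 libraries in the fit and without APAP liver 1 or 2, and adjusted p over the alternatives ran from 0.000284 to 0.276. Between LRH1+APAP and APAP livers it was -0.76 (-1.41 to -0.12, limma adjusted p = 0.105), and without APAP liver 1 it fell by 1.16 (limma adjusted p = 0.000263, range 0.000263 to 0.257).

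Slc39a4 encodes ZIP4, the importer that takes up dietary zinc in the gut (chromosome 15, 76612384 to 76616852). It had 16.1, 14.8 and 16.6 FPKM in LRH1+APAP livers, 18.4, 15.8 and 17.0 FPKM in APAP livers and 12.02, 11.0 and 13.6 FPKM in vehicle livers. Treated livers lay above all vehicle livers, and the treated groups overlapped. The gene rose by 0.45 with APAP (SE 0.10, limma adjusted p = 0.00337) and by 0.35 with LRH1+APAP (SE 0.10, limma adjusted p = 0.0164), both relative to vehicle. After upper-quartile scaling and quantile normalization neither passed, at adjusted p of 0.126 and 0.210 for APAP and 0.466 and 0.595 for LRH1+APAP. The LRH1+APAP call was also lost without LRH1+APAP liver 1 or 3 or vehicle liver 1 or 2, and its adjusted p over the alternatives ran from 0.00901 to 0.595, against 0.00265 to 0.210 for APAP. LRH1+APAP differed from APAP by -0.10 (95% interval -0.32 to 0.11, limma adjusted p = 0.483).

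Slc39a14 encodes ZIP14, which brings zinc, iron and manganese into hepatocytes and is induced by interleukin 6 in mouse liver (chromosome 14, 70303468 to 70351424). It had 38.9, 37.7 and 31.6 FPKM in LRH1+APAP livers, 31.1, 55.8 and 40.2 FPKM in APAP livers and 33.0, 28.3 and 38.9 FPKM in vehicle livers. The 3 groups overlapped and no comparison passed. The difference was 0.31 for APAP against vehicle (95% interval -0.15 to 0.76, limma adjusted p = 0.210), -0.19 for LRH1+APAP against APAP (-0.65 to 0.26, limma adjusted p = 0.528) and 0.11 for LRH1+APAP against vehicle (-0.34 to 0.57, limma adjusted p = 0.663). The last turned negative under upper-quartile scaling and quantile normalization, and the second turned positive without APAP liver 2. Without APAP liver 1 the gene passed as higher with APAP than with vehicle (0.50, limma adjusted p = 0.0292, range over the alternatives 0.0292 to 0.866). Its level was spread over 3 transcript models, of which variant 3 held between 39.6 and 40.5 percent in LRH1+APAP livers, between 33.2 and 43.2 percent in APAP livers and between 35.9 and 40.5 percent in vehicle livers.

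Per length, the metallothioneins stood far above the transporters in every group. In LRH1+APAP livers the order of mean FPKM was Mt1, Mt2, Slc39a14, Slc39a4, Slc30a1, Slc30a10, Mtf1 and Slc39a10, and among neighbours the liver ranges of Slc30a10 and Mtf1 overlapped. In APAP livers the last places were Slc30a10, Slc39a10 and Mtf1, with overlap between Mt1 and Mt2, between Slc30a10 and Slc39a10, and between Slc39a10 and Mtf1. In vehicle livers they were Mtf1, Slc30a10 and Slc39a10, and among neighbours the liver ranges of Mt1 and Mt2 overlapped. Slc39a10 thus held the last place in LRH1+APAP and in vehicle livers and stood above Mtf1 in 2 of 3 APAP livers.

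The spread among livers also differed between the genes. On the log2 scale the SD of Mt1 was 0.14 in LRH1+APAP, 0.85 in APAP and 0.65 in vehicle livers, and that of Mt2 was 0.14, 0.97 and 0.72. For Slc39a10 it was 0.09, 0.70 and 0.02. The median SD of all tested genes was 0.09, 0.18 and 0.09 in the same groups, so the metallothioneins were variable in the vehicle livers too, where liver 3 was the highest for both. In the APAP group, liver 1 was lowest and liver 2 highest for Mt1, Mt2, Mtf1, Slc39a14 and Slc39a10, whereas liver 1 was highest for Slc30a1, Slc30a10 and Slc39a4.

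Of the other SLC30 exporters, 6 of 8 were tested, and 4 rose and 0 fell with APAP relative to vehicle (limma, also 4 and 0 at an unadjusted p under 0.05), with a median of 0.58. Of all genes, 47.8 percent rose and 15.1 percent fell in this comparison. After quantile normalization 1 exporter rose and 1 fell. Slc30a5, an exporter of the early secretory pathway, had 23.0, 19.9 and 19.7 FPKM in LRH1+APAP livers, 27.6, 22.5 and 29.8 FPKM in APAP livers and 14.4, 14.1 and 18.1 FPKM in vehicle livers. It rose by 0.74 with APAP relative to vehicle (limma adjusted p = 0.00144), and APAP and vehicle livers did not overlap. The next most abundant exporters of the list, Slc30a9 and Slc30a6, stood at 0.17 and 0.05 and did not pass. Both values turned negative under upper-quartile scaling and quantile normalization, where Slc30a6 passed as lower after quantile normalization (-0.28, limma adjusted p = 0.0325, range over the alternatives 0.0325 to 0.885). Slc30a9 passed as higher without APAP liver 1 (0.28, limma adjusted p = 0.00498, range 0.00498 to 0.517).

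With LRH1+APAP relative to vehicle, 3 of the 6 exporters rose and 0 fell (limma, 3 and 0 unadjusted), Slc30a5 by 0.41 (limma adjusted p = 0.0292, range over the alternatives 0.0121 to 0.403). Of all genes, 39.2 percent rose and 8.02 percent fell there. Slc30a5 did not pass under upper-quartile scaling, after quantile normalization, or without any LRH1+APAP liver or vehicle liver 1 or 2. The count of exporters that rose was 1 under upper-quartile scaling, after quantile normalization, and without any LRH1+APAP liver or vehicle liver 1, and 2 without vehicle liver 2. Between LRH1+APAP and APAP livers, 0 rose and 0 fell (limma, 0 higher and 1 lower at an unadjusted p under 0.05). Without APAP liver 1, 2 fell, where 38.1 percent of all genes passed.

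Of the other SLC39 importers, 10 of 11 were tested, and 5 rose and 1 fell with APAP relative to vehicle, with a median of 0.21. Of all genes, 47.8 percent rose and 15.1 percent fell in this comparison. Slc39a7, the importer that releases zinc from the endoplasmic reticulum, had 32.9, 34.5 and 32.4 FPKM in LRH1+APAP livers, 39.1, 47.5 and 47.9 FPKM in APAP livers and 22.5, 22.8 and 21.4 FPKM in vehicle livers. Its 3 groups did not overlap, with LRH1+APAP livers in the middle. It rose by 0.98 with APAP relative to vehicle (limma adjusted p = 9.06e-05), fell by 0.41 with LRH1+APAP relative to APAP (limma adjusted p = 0.0227), and rose by 0.56 with LRH1+APAP relative to vehicle (limma adjusted p = 0.00148). Slc39a1, a plasma membrane importer, rose by 0.83 with APAP (limma adjusted p = 0.00179), and Slc39a9 stood at 0.05 and did not pass. Slc39a9 turned negative under both scalings and without APAP liver 2 or 3, and passed as higher without APAP liver 1 (0.20, limma adjusted p = 0.0160, range over the alternatives 0.0160 to 0.914). Relative to vehicle, Slc39a9 stood at -0.18 with LRH1+APAP and passed as lower under both scalings, with 6 libraries in the fit and without APAP liver 1 (limma adjusted p 0.00889 to 0.390 over the alternatives).

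Slc39a7 was the 1 importer of 10 that passed between LRH1+APAP and APAP livers, where the list had a median of -0.12 and the adjusted p of Slc39a7 ran from 0.000807 to 0.0865 over the alternatives. In that comparison 12.3 percent of all genes passed. Slc39a1 stood at -0.51 there without passing (limma adjusted p = 0.0610). It passed as lower under upper-quartile scaling (limma adjusted p = 0.0475), after quantile normalization (limma adjusted p = 0.0489) and without APAP liver 1 (limma adjusted p = 0.00222). In the fits without APAP liver 3 or without any 1 of the LRH1+APAP livers, 0 importers passed, whereas without APAP liver 1, 2 rose and 4 fell. Across all genes, 3.97 percent passed without APAP liver 3, 1.73 to 4.34 percent without an LRH1+APAP liver and 38.1 percent without APAP liver 1. In LRH1+APAP relative to vehicle livers, where 39.2 percent of all genes rose, 4 importers rose and 1 fell, with a median of 0.28. The 1 that fell in both comparisons with vehicle was Slc39a2, named after its values were seen, with 0.594, 0.495 and 0.617 FPKM in LRH1+APAP livers, 0.519, 0.104 and 0.382 FPKM in APAP livers and 1.94, 1.70 and 1.58 FPKM in vehicle livers. Slc39a2 averaged 0.568, 0.335 and 1.74 FPKM in these groups and reached the level for testing mainly through its high vehicle livers. Its passes are therefore no support for a fall. The split was 2 higher and 2 lower for LRH1+APAP under both scalings, and for APAP 4 and 2 with upper-quartile scaling (median -0.01) and 4 and 4 after quantile normalization (median -0.11). For APAP, 2 importers fell without APAP liver 1 or vehicle liver 1, where 69.2 and 55.0 percent of all genes passed. For LRH1+APAP, 2 fell without APAP liver 1, where 57.8 percent of all genes passed.

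**Figure D4:**
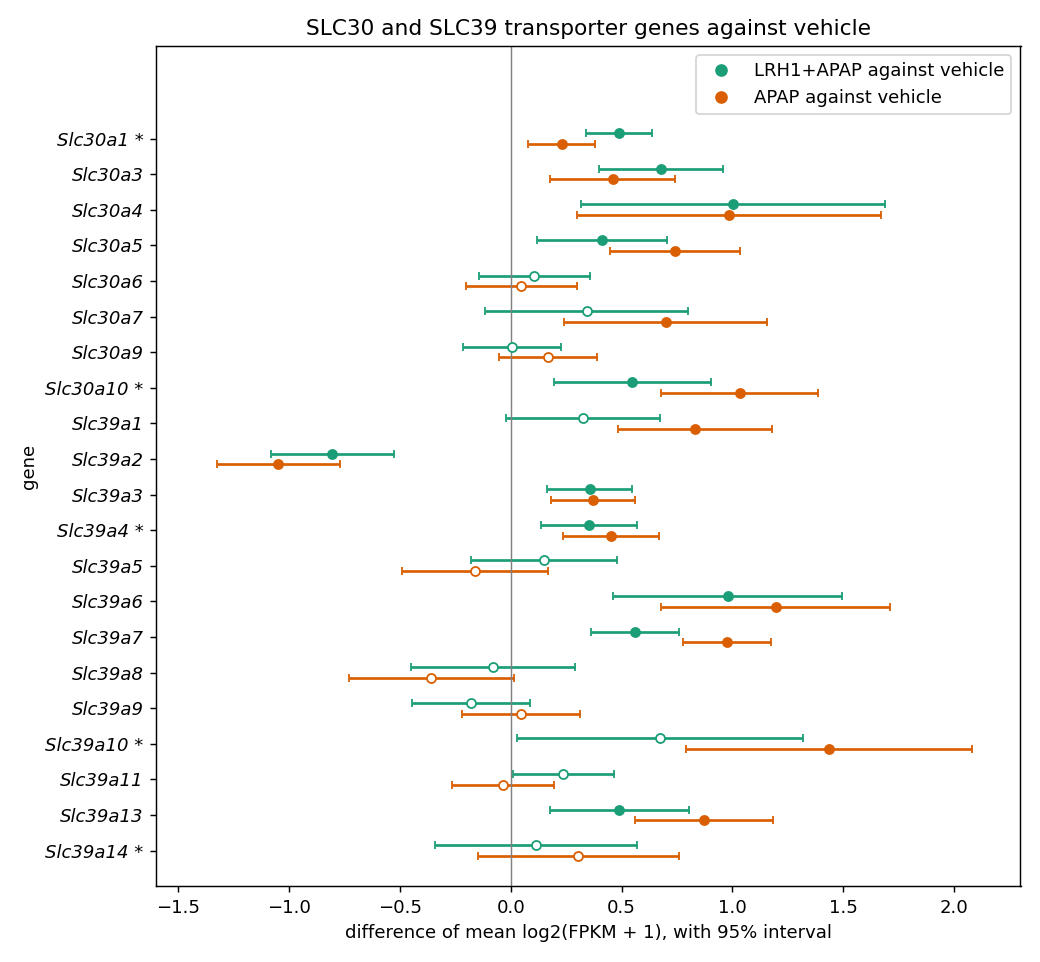
Difference of mean log2(FPKM + 1) from vehicle for each tested SLC30 and SLC39 transporter, with LRH1+APAP above APAP in each pair, bars for the 95% interval, filled points for an adjusted p under 0.05 and an asterisk for genes among the 8. Slc39a2 lies lowest in both comparisons, at -0.80 with LRH1+APAP and -1.05 with APAP, and reached the level for testing mainly through its vehicle livers.

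Other genes reported to depend on MTF1 in mouse were Gclc, Sepw1, Ndrg1, Csrp1 and Pgf, of which Pgf was under the level for testing. Of the 4 tested, 3 rose and 0 fell with APAP and likewise with LRH1+APAP, both relative to vehicle (limma, also 3 and 0 unadjusted in each). Of all genes, 47.8 percent rose with APAP and 39.2 percent with LRH1+APAP. Gclc, the catalytic subunit of the first enzyme of glutathione synthesis, had 503, 554 and 680.5 FPKM in LRH1+APAP livers, 283, 391 and 349.9 FPKM in APAP livers and 103, 86.3 and 76.3 FPKM in vehicle livers. The groups did not overlap, and LRH1+APAP livers were the highest, the order also seen for Slc30a1. Gclc rose by 0.76 with LRH1+APAP relative to APAP (limma adjusted p = 0.0233, range over the alternatives 0.0153 to 0.0861). Csrp1, a cytoskeletal LIM protein gene named after its values were seen, fell by 1.23 in that comparison (limma adjusted p = 0.0143, range 0.000325 to 0.0648).

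Gclc is also known as a target of NRF2, and Ndrg1, a stress-induced gene, as a target of hypoxia signalling. Ndrg1 rose by 3.39 with LRH1+APAP (limma adjusted p = 0.000426) and by 3.21 with APAP (limma adjusted p = 0.000339), both relative to vehicle. Sepw1, a selenoprotein gene, was not called in any of the 3 comparisons, though it passed as lower with LRH1+APAP than with vehicle under upper-quartile scaling, with 6 libraries in the fit and without APAP liver 2 (limma adjusted p 0.0114 to 0.328 over the alternatives). With LRH1+APAP relative to APAP, 1 of the 4 rose and 1 fell, where 7.13 percent of all genes rose and 5.17 percent fell. Without APAP liver 3 or LRH1+APAP liver 2 or 3 the counts were 0 and 0, where 3.97, 2.21 and 1.73 percent of all genes passed.

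Copper, the other metal that metallothioneins hold, was followed through 9 genes, all tested. With APAP relative to vehicle, 2 rose and 4 fell, with a median of -0.05, and 1 rose under upper-quartile scaling, after quantile normalization and with the model of highest mean. As deposited, 47.8 percent of all genes rose and 15.1 percent fell. Ceruloplasmin (Cp), the copper oxidase of plasma, had 205, 217 and 217 FPKM in LRH1+APAP livers, 202, 393 and 264 FPKM in APAP livers and 223, 221 and 248 FPKM in vehicle livers, and was called in none of the 3 comparisons. Without APAP liver 1, it passed as higher with APAP than with vehicle (0.48, limma adjusted p = 0.0190, range over the alternatives 0.0190 to 0.976) and fell with LRH1+APAP relative to APAP (-0.59, limma adjusted p = 0.0164). Atox1, a copper chaperone, rose by 0.34 with APAP (limma adjusted p = 0.0114) and by 0.27 with LRH1+APAP (limma adjusted p = 0.0401), both relative to vehicle, but neither passed under upper-quartile scaling (limma adjusted p = 0.579 and 0.979). Over the alternatives its adjusted p ran from 0.0103 to 0.579 and from 0.0143 to 0.979, and the LRH1+APAP call was lost without any LRH1+APAP liver or vehicle liver 1 or 2. Ccs, the chaperone of superoxide dismutase, fell by 0.49 with APAP (limma adjusted p = 0.00849) and by 0.40 with LRH1+APAP (limma adjusted p = 0.0296, 0.000948 to 0.0923 over the alternatives). The second call was lost without any LRH1+APAP liver or vehicle liver 2 or 3.

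Of the copper genes, 1 rose and 3 fell between LRH1+APAP and vehicle livers, and 1 rose and 1 fell between LRH1+APAP and APAP livers. Of all genes, 39.2 percent rose and 8.02 percent fell in the former comparison, and 7.13 and 5.17 percent in the latter. For LRH1+APAP against vehicle 4 copper genes fell and 0 rose under upper-quartile scaling, and 5 fell and 1 rose after quantile normalization. In that comparison 1 fell without LRH1+APAP liver 1, 2 or 3 or vehicle liver 2 or 3, and 2 fell without vehicle liver 1 or APAP liver 3. Across all genes, 31.4 to 36.6 percent passed in the former fits, and 35.1 and 44.8 percent in the latter. For LRH1+APAP against APAP 0 fell without APAP liver 2 or 3, without any LRH1+APAP liver or without any vehicle liver, where 1.73 to 7.97 percent of all genes passed. Without APAP liver 1, 2 rose and 3 fell, where 38.1 percent of all genes passed.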

How the data were processed

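Values are the authors' deposited FPKM, 1 column per liver. Named in the submitters' processing notes, with no role or order, are the build mm10 and the tools StringTie 1.3.3b, Bowtie2 2.2.6 and FastQC 0.10.0, and no scaling between libraries is stated. Read counts were not analysed here, so no counting error is given and precision rests on the spread between livers. Each library is labelled as 1 liver.

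FPKM of 36779 transcript models was summed by symbol. The 12202 genes averaging 0.5 FPKM or more across the 9 libraries were fitted as log2(FPKM + 1) with limma 3.58.1 in R 4.3.3, with 1 mean per group and an intensity trend. Differences on this scale understate the change of low genes. Tests were two-sided, Benjamini-Hochberg adjusted over all tested genes and called under 0.05. The code was also run on simulated normal values with the same SD in every group. That simulation lacks the larger spread of the APAP livers, so it cannot show how the method behaves under it. Python 3.11.15, pandas 2.3.3 and matplotlib 3.10.9 were used for summaries and figures. The alternatives were pseudocounts of 0.1 and 0.5, no filter, a minimum mean of 5 FPKM, upper-quartile scaling, quantile normalization, the transcript model of highest mean, no variance trend, 6 libraries in the fit, a replicate block, and each library left out. Named from each related list were its counts and the 3 genes of highest mean, and for Mt1 and Mt2 the 5 genes of most like pattern, passing over Gm and Rik symbols. The 8 genes and the lists were chosen with earlier results of these data known.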

Additional observations from a re-analysis of the deposited data

How the results depend on the processing

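Of 447 recomputed differences of the 8 genes, 397 kept their direction and side of the threshold, 26 lost a call, 11 gained one and 13 changed sign. The sign changes were in small differences that had not passed, apart from Slc30a1 for APAP against vehicle, which became -0.017 with upper-quartile scaling and -0.075 after quantile normalization. Mtf1 became -0.028 and -0.17 for APAP against vehicle and -0.031 and -0.15 for LRH1+APAP against vehicle under the same 2 settings, and Slc39a14 became -0.15 and -0.067 for LRH1+APAP against vehicle. Mtf1 became 0.024 after quantile normalization for LRH1+APAP against APAP. With each liver left out, that difference ran from -0.13 to 0.073 for Mtf1 and from -0.39 to 0.021 for Slc39a14.

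Of the 8 genes, the count that passed for LRH1+APAP against APAP was 1, and 0 with the model of highest mean, with 6 libraries in the fit and with the replicate block, and ran from 0 to 4 with each liver left out. For LRH1+APAP against vehicle it was 5, and 3 with upper-quartile scaling, 2 after quantile normalization and 3 to 7 with each liver left out. For APAP against vehicle it was 6, and 4 with upper-quartile scaling and after quantile normalization and 5 to 8 with each liver left out. With each liver left out, 1.73 to 38.1 percent of all genes passed for LRH1+APAP against APAP. The share was 31.4 to 57.8 percent for LRH1+APAP against vehicle and 54.1 to 69.2 percent for APAP against vehicle. Over all genes, 4746 passed for APAP against vehicle with means of 5 FPKM or more and 3671 for LRH1+APAP against vehicle, where fewer genes were tested. For LRH1+APAP against APAP, 1501 genes passed, 263 with 6 libraries, 807 with the replicate block, and 210 to 4642 with each liver left out, the highest without APAP liver 1. For LRH1+APAP against vehicle, leaving out livers gave 3826 to 7053. The cause of these changes in the counts was not tested.

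Livers with the same replicate number did not deviate together (correlations -0.136 to 0.0682), so the numbers were not taken as pairs, and the block took the adjusted p of Slc30a1 for LRH1+APAP against APAP to 0.0812. With 5 FPKM as the lowest mean, Mtf1, Slc30a10 and Slc39a10 could not be tested. With 3 livers a group, precision is limited by the spread among APAP livers.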

Other observations

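Signals known to induce liver metallothionein, interleukin 6 through STAT3 and glucocorticoids through their receptor, were read from 8 genes, of which 7 were tested. With APAP relative to vehicle 3 rose and 3 fell (limma, Benjamini-Hochberg adjusted p under 0.05), with a median of -0.16. Of all genes, 47.8 percent rose and 15.1 percent fell there. Tsc22d3, the glucocorticoid-induced leucine zipper gene GILZ, had 39.8, 69.4 and 65.1 FPKM in LRH1+APAP livers, 18.5, 14.2 and 18.7 FPKM in APAP livers and 90.0, 91.5 and 80.5 FPKM in vehicle livers. The 3 groups did not overlap, with the APAP livers lowest. Tsc22d3 fell by 2.29 with APAP relative to vehicle (limma adjusted p = 8.16e-05), and rose by 1.68 with LRH1+APAP relative to APAP (limma adjusted p = 0.00383), both under all 19 alternatives. Fkbp5, another gene induced by glucocorticoids, fell by 0.86 with APAP relative to vehicle (limma adjusted p = 0.0125). Between LRH1+APAP and APAP livers it stood at 0.50 (limma adjusted p = 0.179), and it passed without vehicle liver 3 (limma adjusted p = 0.0480, range 0.0480 to 0.373).

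Stat3, the transcription factor downstream of the interleukin 6 receptor, had 35.5, 32.9 and 30.9 FPKM in LRH1+APAP livers, 38.6, 41.8 and 36.2 FPKM in APAP livers and 18.6, 15.4 and 25.5 FPKM in vehicle livers. Both treated groups lay above every vehicle liver. Stat3 rose by 0.74 with LRH1+APAP (limma adjusted p = 0.00600, and 0.0735 with the model of highest mean, range 0.00139 to 0.0735) and by 0.96 with APAP (limma adjusted p = 0.00105), both relative to vehicle. Il6 itself was listed at 0 in 7 of 9 livers and was not tested. Relative to APAP, 2 of the 7 genes rose with LRH1+APAP and 0 fell (limma, 3 and 1 at an unadjusted p under 0.05), Tsc22d3 and Il6ra, the interleukin 6 receptor gene. Of all genes, 7.13 percent rose and 5.17 percent fell in that comparison. Il6ra rose by 1.36 there (limma adjusted p = 0.00285) and fell by 0.84 with APAP relative to vehicle (limma adjusted p = 0.00126), both under all 19 alternatives. Socs3 rose by 2.11 with APAP relative to vehicle (limma adjusted p = 0.00229). Between LRH1+APAP and APAP livers Socs3 stood at -1.11 (limma adjusted p = 0.101). Without APAP liver 1 it passed there as lower (-1.35, limma adjusted p = 0.0414, range over the alternatives 0.0414 to 0.256). Il6ra and Socs3 were named after their values were seen. Between LRH1+APAP and vehicle livers 3 of the 7 genes rose and 1 fell, and under both scalings 1 rose and 2 fell. As deposited, 39.2 percent of all genes rose and 8.02 percent fell there. No relation of these genes to Mt1 or Mt2 was tested.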
